A study of Mus musculus with 10 samples.

Results

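Glycolysis and the response to low oxygen were followed in lenses of E13.5 mouse embryos through 33 named genes: the transporters and enzymes that take glucose to lactate, and genes that hypoxia-inducible factor (HIF) raises when oxygen falls. Each was read from the probe set that carries its symbol alone, and where a gene had several, from the one with the highest mean over all arrays. That gave values for 30 of the 33 genes, 20 of glycolysis and 10 of the hypoxia response, of 19938 genes measured in all. Gapdh had no value of its own, because all 25 of its probe sets are also named for near-identical copies. Gpi1 and Eno1 had no probe set under their names in the annotation used here, so the isomerase step and the commonest enolase were not analysed here.

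DicerCN embryos carried 1 copy of the Le-Cre transgene (Le-Cre+/-) and a pair of loxP-flanked Dicer alleles (DicerloxP/loxP). Le-Cre expresses Cre recombinase from the Pax6 P0 promoter, which is active in surface ectoderm, the source of lens and corneal epithelium. Control embryos, which the titles call wild type, had no Le-Cre (Le-Cre-/-) and the same flanked alleles. Each group had 5 arrays, and each array held RNA from the combined lens pair of 1 embryo. Dicer, a ribonuclease, releases mature microRNAs from their precursors, and the comparison asked which transcripts change when it is deleted from the lens lineage. Only DicerCN lenses held Cre, so effects of Cre and of Dicer loss cannot be told apart. The Dicer1 probe set read 10.19 to 10.45 in DicerCN and 10.01 to 10.32 in control arrays and did not differ past the threshold (log2 change 0.13, limma adjusted p = 0.472). It sums probes along the transcript, and whether any lies in the part between the loxP sites is not known here, so it does not check the labels.

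Glycolysis splits glucose into pyruvate, which lactate dehydrogenase can turn into lactate, and it is the main energy source of the lens, a tissue that has no blood vessels of its own in adults and whose fibre cells lose their mitochondria. Several steps can be run by more than 1 gene, with isoforms named for the tissue that uses them most. HIF1A protein is made constantly and is marked for destruction by oxygen-dependent prolyl hydroxylases of the Egln family. When oxygen is short it escapes, binds DNA at a core of ACGTG or GCGTG, and raises glucose transporters, glycolytic enzymes, Pdk1, Bnip3 and the collagen prolyl hydroxylases.

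That core was looked for in the promoters of the members, taken from RefSeq (GRCm38.p6) as 250 bases before to 50 after each start. ACGTG lay in 51.2% of the 43 member promoters and 19.6% of all, and GCGTG in 55.8% of member promoters and 32.4% of all. The 43 member promoters belong to 31 genes. At least 1 core on either strand lay in 34 of the 43 promoters (79.1%), those of 27 genes. The same held for 14380 of 32851 promoters of all genes (43.8%). RefSeq's table held no entry for Ndrg1 and Slc2a3. The 4 sequences below belong to the collagen prolyl hydroxylase pair that moved in opposite directions, the HIF prolyl hydroxylase that rose, and the member that fell most. They run 5′ to 3′ along the gene's strand, with each core in capitals. A core reads ACGTG or, in its variant form, GCGTG on the gene's strand, and CACGT or, for the variant, CACGC where it lies on the opposite strand. A palindromic CACGTG counts on both strands.
P4ha1 (chr10:59323046-59323345, plus strand): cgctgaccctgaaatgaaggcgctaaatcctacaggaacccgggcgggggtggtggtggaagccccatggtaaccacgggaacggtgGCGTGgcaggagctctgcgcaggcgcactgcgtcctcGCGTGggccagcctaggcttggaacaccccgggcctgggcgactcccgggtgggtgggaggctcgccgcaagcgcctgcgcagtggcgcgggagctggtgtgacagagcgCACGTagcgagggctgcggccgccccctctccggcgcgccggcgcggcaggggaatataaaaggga
P4ha2 (chr11:54100674-54100973, plus strand): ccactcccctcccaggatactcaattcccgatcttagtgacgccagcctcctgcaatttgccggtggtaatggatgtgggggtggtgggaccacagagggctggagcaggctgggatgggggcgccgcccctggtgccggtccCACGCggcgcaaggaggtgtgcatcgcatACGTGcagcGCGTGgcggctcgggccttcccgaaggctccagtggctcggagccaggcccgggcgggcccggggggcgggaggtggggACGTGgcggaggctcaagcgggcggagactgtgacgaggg
Egln3 (chr12:54203825-54204124, minus strand): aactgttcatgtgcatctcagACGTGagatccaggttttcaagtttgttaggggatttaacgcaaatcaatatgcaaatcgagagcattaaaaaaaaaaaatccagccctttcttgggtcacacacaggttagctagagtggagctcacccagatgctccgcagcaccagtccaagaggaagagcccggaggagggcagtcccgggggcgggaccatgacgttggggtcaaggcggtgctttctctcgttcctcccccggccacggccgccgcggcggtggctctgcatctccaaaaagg
Pgam2 (chr11:5803747-5804046, minus strand): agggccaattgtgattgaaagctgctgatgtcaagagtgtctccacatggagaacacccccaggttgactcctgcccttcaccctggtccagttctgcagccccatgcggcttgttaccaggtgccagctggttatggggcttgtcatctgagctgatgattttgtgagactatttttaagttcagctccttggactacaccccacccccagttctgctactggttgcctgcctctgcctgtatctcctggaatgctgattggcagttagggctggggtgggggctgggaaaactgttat
The P4ha1 window held 3 cores, the P4ha2 window 4, the Egln3 window 1 and the Pgam2 window 0. Both P4ha genes, whose transcripts moved in opposite directions, had cores in this window. A match is a run of letters and was not tested as a binding site.

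In DicerCN lenses 6 of the 30 genes changed: Pgam2, Aldoc, P4ha1 and Ndrg1 fell, and P4ha2 and Egln3 rose (limma, adjusted p under 0.05 over all genes). By the same test 6.54% of all genes changed, with 3.97% lower and 2.56% higher. Members were chosen with earlier results of these data known, so these shares are not a test of the members. Of the glycolytic genes 2 of 20 fell and none rose, and of the hypoxia genes 2 of 10 fell and 2 rose. The median log2 change, DicerCN minus control, was -0.233 over the 20 glycolytic genes and -0.102 over the 10 hypoxia genes, against -0.001 over all genes. Among the glycolytic genes 15 of 20 estimates lay below 0, most of them without passing the test. The 15 include a Hk1 probe set that cannot be assigned to Hk1 with certainty (below). With RefSeq probe sets only, the count was 14 of 20. DicerCN and control arrays did not overlap in 7 of the 30 genes, against 7.38% of all genes: the called genes other than Aldoc, and in addition Pgk1 and Pdk1.

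**Figure D1:**
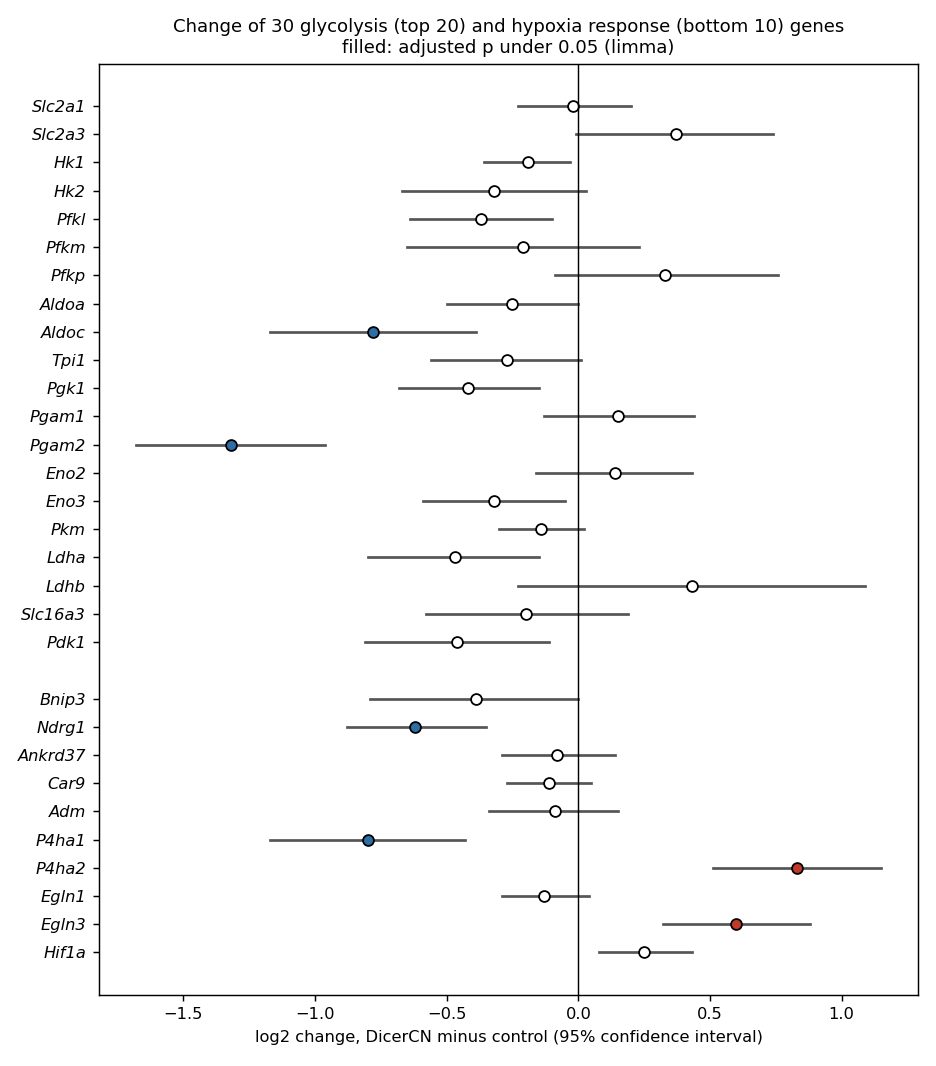
Log2 change of each measured gene, DicerCN minus control (x axis), with its 95% confidence interval (line), glycolytic genes above and hypoxia genes below. Filled circles passed the test (blue lower, red higher in DicerCN): Pgam2 at -1.32 is farthest left, and P4ha2 at 0.83 is farthest right.

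Glucose enters through Slc2a1 (GLUT1), the transporter of most tissues, whose log2 signal lay between 12.04 and 12.47 in DicerCN arrays and between 11.98 and 12.36 in control arrays. Its log2 change was -0.02 (95% interval -0.23 to 0.20), a sign that turned under 6 alternatives. Slc2a3 (GLUT3), the high-affinity transporter of neurons, stood at 6.19 to 6.87 in DicerCN and 5.70 to 6.50 in control arrays, with a change of 0.37 (-0.01 to 0.74). Neither transporter passed the test.

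Hexokinase traps glucose as its phosphate. Hk2, the form of muscle and insulin-sensitive tissue, stood at 8.52 to 9.46 in DicerCN and 9.08 to 9.48 in control arrays, a change of -0.32 (-0.67 to 0.03). For Hk1, the form of most tissues, the choice by highest mean took a probe set with a mean of 12.79 whose only mRNA record is shared with 16 probe sets that also name Rpl17, a ribosomal protein gene, and these had means between 11.63 and 13. The change of -0.19 (SE 0.08) read there cannot be assigned to Hk1 with certainty. Its other probe set, which carries the RefSeq transcript, read 8.03, 8.08, 8.17, 7.96 and 8.11 in DicerCN and 7.93, 7.75, 8.06, 7.90 and 8.04 in control replicates 1 to 5, with a change of 0.13 (adjusted p = 0.405). Hk1 did not pass by either.

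Phosphofructokinase is the committed step. Pfkl, the liver form, stood at 9.30 to 9.85 in DicerCN and 9.81 to 10.30 in control arrays, with a change of -0.37 (-0.64 to -0.10, adjusted p = 0.115). Pfkm, the muscle form, had a change of -0.21 (-0.65 to 0.23) and Pfkp, the platelet form, of 0.33 (-0.09 to 0.76). The highest Pfkp signal of all arrays, 7.58, was that of DicerCN replicate 5, and without that array the change was 0.14. DicerCN replicate 5 also had the highest summed signal of neural retina markers, 13.78, against 12.67 to 13.26 in the other DicerCN arrays and 12.74 to 12.89 in control arrays. DicerCN replicate 4, with a retina sum of 13.26, had the lowest Pfkp signal of the DicerCN arrays (6.29). Of the 12 retina markers measured all had positive changes, 0 passed the test, and 6 lay above the median signal of all genes. Sfrp2, the brightest of them (means of 12.69 in DicerCN and 12.54 in control lenses), weighed most in the sum. With the mean of the retina markers' log2 signals as a covariate, rather than their sum, the change of Pfkp was 0.15. With muscle markers it was 0.34 and with macrophage markers 0.59, so the marker lists moved it in different directions. All marker covariates below were such means.

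Aldolase cuts the 6-carbon sugar into trioses. Aldoc, the form of brain, read 8.45, 8.19, 7.92, 7.91 and 7.89 in DicerCN replicates 1 to 5, against 9.08, 8.70, 8.91, 8.25 and 9.32 in control replicates 1 to 5. Control replicate 4 lay below DicerCN replicate 1, and the other control arrays lay above all DicerCN arrays. Aldoc fell 1.72-fold (log2 change -0.78, SE 0.18, limma adjusted p = 0.0204). Adjusted p exceeded 0.05 without DicerCN replicate 4 (0.0539), control replicate 1 (0.0610) or control replicate 3 (0.0531), with changes of -0.77 to -0.72. It also did so with retina markers as a covariate (change -0.67, adjusted p = 0.0776) and with macrophage markers (-0.52, 0.401). Macrophage marker means were 6.74 to 7.55 in DicerCN and 6.21 to 6.90 in control arrays, so that covariate partly stood for the groups. With it 55 genes were higher and 152 lower over all genes, against 511 and 792 without it. A call lost with it is therefore not particular to a gene. Aldoa, the main form of most tissues, stood at 11.65 to 12.01 in DicerCN and 11.96 to 12.50 in control arrays, a change of -0.25 (SE 0.12, adjusted p = 0.260).

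The middle of the pathway was read from Tpi1, the triose isomerase, and Pgk1, which passes a phosphate from a 3-carbon sugar acid to ADP, one of the pathway's ATP-making steps. Tpi1 had a change of -0.27 (-0.56 to 0.01). Pgk1, an X-linked gene, read 11.50, 11.60, 11.43, 11.18 and 11.27 in DicerCN replicates 1 to 5, against 11.67, 11.68, 11.87, 11.63 and 12.21 in control replicates 1 to 5. All DicerCN arrays lay below all control arrays by a margin of a few hundredths. The change of -0.42 (SE 0.12) missed the threshold (adjusted p = 0.0611), and it passed when the genes of lowest signal were left out (0.0498). Its 3 probe sets, a pair of which hold identical values, gave changes of -0.42, -0.42 and -0.41.

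Phosphoglycerate mutase shifts the phosphate on the sugar acid, and here the isoforms parted. Pgam2, the subunit of muscle, read 8.86, 9.10, 9.01, 8.15 and 8.42 in DicerCN replicates 1 to 5, against 9.96, 10.28, 9.97, 9.90 and 10 in control replicates 1 to 5. The highest DicerCN array lay well below the lowest control array. Pgam2 fell 2.49-fold (log2 8.71 ± 0.41 in DicerCN and 10.02 ± 0.15 in control lenses, SD, n = 5 each, change -1.32, SE 0.17, limma adjusted p = 0.000696). Its call held under all 22 alternatives, with changes between -1.42 and -1.18. Pgam1, the form of most tissues, read between 10.14 and 10.78 in DicerCN and between 9.99 and 10.58 in control arrays, a change of 0.15 (-0.13 to 0.44).

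Because Pgam2 is best known from muscle, the signal of 16 striated muscle markers was set beside it. Their summed log2 signal was 10.37 to 10.65 in DicerCN arrays and 10.25 to 10.66 in control replicates 1, 2, 3 and 5, and 14.31 in control replicate 4. Of the 16 markers 0 passed the test and 4 lay above the median signal of all genes, and the brightest, Actc1, an actin of heart and embryonic muscle, read 12.86 in control replicate 4 and 7.39 to 8.73 in the other arrays. Pgam2 was at 9.90 in that array and at 9.96 to 10.28 in the other control arrays. With the muscle markers as a covariate its change was -1.34 (adjusted p = 0.00132).

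**Figure D2:**
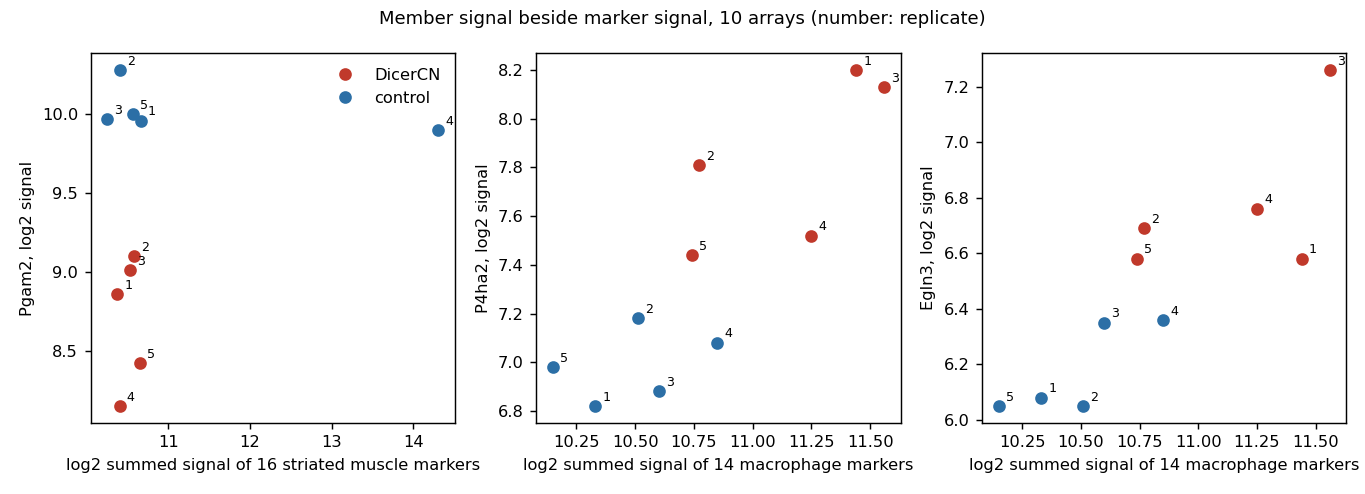
Log2 signal of Pgam2, P4ha2 and Egln3 (y axes) against the log2 summed signal of striated muscle or macrophage markers (x axes) in each of the 10 arrays, DicerCN in red and control in blue, numbered by replicate. Control replicate 4 stands apart in muscle signal at 14.31 with Pgam2 at 9.90, and the macrophage signal is highest in DicerCN replicate 3 at 11.56.

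Enolase makes phosphoenolpyruvate. Eno3, the muscle form, read 9.57, 9.05, 9.0, 9.28 and 8.82 in DicerCN replicates 1 to 5, against 9.42, 9.58, 9.41, 9.57 and 9.34 in control replicates 1 to 5. DicerCN replicate 1 lay inside the control range and the other DicerCN arrays below it. Eno3 did not pass (change -0.32, SE 0.12, adjusted p = 0.174), but without DicerCN replicate 1 it did (-0.43, adjusted p = 0.0256). Eno2, the neuronal form, stood at 6.13 to 6.57 in DicerCN and 5.97 to 6.66 in control arrays, a change of 0.14 (-0.16 to 0.43).

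Pyruvate kinase closes the pathway, and Pkm, its gene outside liver and red cells, had a change of -0.14 (-0.30 to 0.02). Ldha, the lactate dehydrogenase subunit that favours lactate production, read 11.25, 11.17, 11.20, 10.67 and 11.38 in DicerCN replicates 1 to 5, against 11.50, 11.42, 11.71, 11.34 and 12.05 in control replicates 1 to 5. All DicerCN arrays lay below the control mean, and only DicerCN replicate 5 reached into the control range. The change of -0.47 (SE 0.15) did not pass (adjusted p = 0.0896). Ldhb, the heart subunit, ran from 6.71 to 8.12 in DicerCN and from 6.22 to 7.48 in control arrays, with a change of 0.43 (-0.23 to 1.09). Its highest signals, 8.12 and 8.09, were those of DicerCN replicates 4 and 5, which also had the highest summed retina signals (13.26 and 13.78). Among control arrays Ldhb was highest in replicate 4 (7.48), where the retina sum was 12.74, the low end of the control range. With the retina markers as a covariate the change of Ldhb was 0.08. With macrophage markers it was 0.14 and with muscle markers 0.53.

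Slc16a3 (MCT4) exports lactate, and Pdk1 keeps pyruvate out of mitochondria by switching off pyruvate dehydrogenase. Slc16a3 had a change of -0.20 (-0.58 to 0.19), and with the macrophage markers as a covariate its sign turned (0.14). Pdk1 read 7.93, 8.15, 7.30, 8.08 and 8.10 in DicerCN replicates 1 to 5, against 8.24, 8.23, 8.30, 8.30 and 8.79 in control replicates 1 to 5. The groups did not overlap, but their nearest arrays were 8.15 and 8.23, and the change of -0.46 (SE 0.16) did not pass (adjusted p = 0.123).

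**Figure D3:**
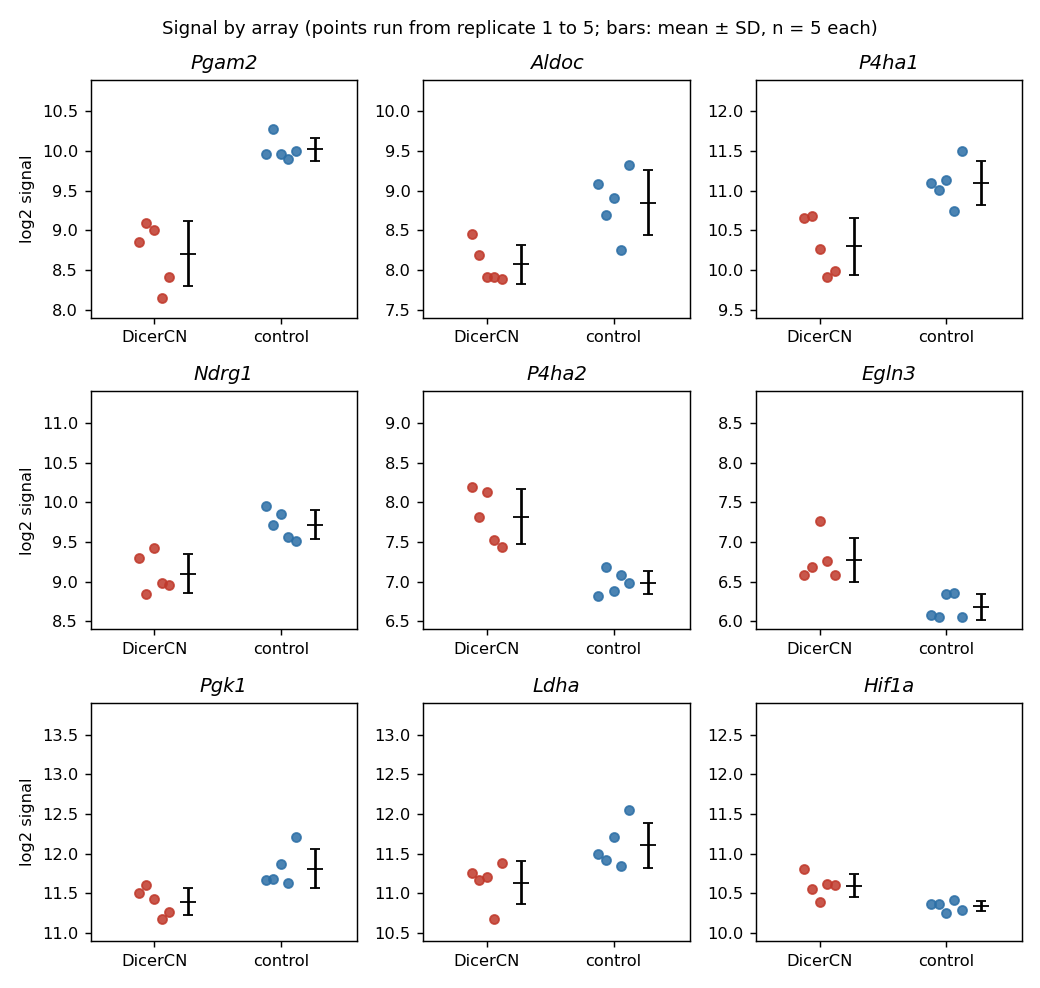
Log2 signal of 9 genes by array, DicerCN on the left (red) and control on the right (blue) of each panel, with the mean ± SD (n = 5 each). Pgam2 stood at 8.15 to 9.10 in DicerCN and 9.90 to 10.28 in control arrays, and every axis spans the same log2 range.

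Among hypoxia genes, both collagen prolyl 4-hydroxylases changed, in opposite directions. They are enzymes of the endoplasmic reticulum that hydroxylate prolines of collagen so that its triple helix is stable. P4ha1 read 10.66, 10.68, 10.27, 9.92 and 9.99 in DicerCN replicates 1 to 5, against 11.10, 11.01, 11.14, 10.74 and 11.50 in control replicates 1 to 5. P4ha2, an alternative catalytic subunit, read 8.2, 7.81, 8.13, 7.52 and 7.44 in DicerCN replicates 1 to 5, against 6.82, 7.18, 6.88, 7.08 and 6.98 in control replicates 1 to 5. Neither gene overlapped between the groups: P4ha1 was lower and P4ha2 higher in every DicerCN array than in any control array. P4ha1 fell 1.74-fold (change -0.80, SE 0.17, limma adjusted p = 0.0152). P4ha2 rose 1.78-fold (change 0.83, SE 0.15, limma adjusted p = 0.00499). The P4ha1 call was lost with retina markers as a covariate (change -0.63, adjusted p = 0.0576) or with macrophage markers (-0.62, 0.298). The P4ha2 call was lost with macrophage markers (0.52, 0.230), as were most calls over all genes.

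The HIF prolyl hydroxylases are the oxygen sensors, and Egln3 is itself raised by HIF. It read 6.58, 6.69, 7.26, 6.76 and 6.58 in DicerCN replicates 1 to 5, against 6.08, 6.05, 6.35, 6.36 and 6.05 in control replicates 1 to 5. Every DicerCN array lay above every control array. Egln3 rose 1.51-fold (change 0.60, SE 0.13, limma adjusted p = 0.0161). With macrophage markers as a covariate its call was lost (0.32, adjusted p = 0.432), as were most calls over all genes. Egln1, the main hydroxylase of HIF1A in most cells, stayed between 8.90 and 9.14 in DicerCN and between 9.04 and 9.31 in control arrays, with a change of -0.13 (-0.29 to 0.04).

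Of 14 macrophage markers, 3 rose in DicerCN lenses and none fell, namely Csf1r, the macrophage growth factor receptor (0.86), Ctss, a lysosomal protease (0.73), and Cx3cr1, a chemokine receptor (0.73). Their summed log2 signal was 10.74 to 11.56 in DicerCN and 10.15 to 10.85 in control arrays, and 8 of the 14 lay above the median signal of all genes. DicerCN replicates 1 and 3 had both the highest macrophage sums (11.44 and 11.56) and the highest P4ha2 signals (8.2 and 8.13). DicerCN replicates 2, 4 and 5 had macrophage sums of 10.77, 11.25 and 10.74, with P4ha2 at 7.81, 7.52 and 7.44. Among DicerCN arrays, replicates 1 and 3 also had the highest sums of vessel endothelium (12.50 and 12.73) and periocular mesenchyme markers (11.90 and 12.72). Egln3 was highest in DicerCN replicate 3 (7.26) and among the lowest of the DicerCN arrays in replicate 1 (6.58). Among control arrays the macrophage sum was highest in replicate 4 (10.85) and P4ha2 in replicate 2 (7.18). With the macrophage markers as a covariate the change of P4ha2 was 0.52. In RNA from whole lenses, more or fewer cells of a type and more or less RNA per cell cannot be told apart.

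Hif1a, the oxygen-regulated subunit itself, read 10.80, 10.56, 10.39, 10.62 and 10.60 in DicerCN replicates 1 to 5, against 10.37, 10.37, 10.25, 10.41 and 10.29 in control replicates 1 to 5. All DicerCN arrays lay above the control mean and only DicerCN replicate 3 reached into the control range. The change of 0.25 (SE 0.08) did not pass (adjusted p = 0.0937), and without DicerCN replicate 3 it did (0.31, adjusted p = 0.0415). HIF1A protein, which oxygen controls, was not measured.

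Ndrg1, a cytoplasmic protein of differentiating and stressed cells that hypoxia raises, read 9.30, 8.85, 9.42, 8.98 and 8.96 in DicerCN replicates 1 to 5, against 9.95, 9.72, 9.85, 9.57 and 9.51 in control replicates 1 to 5. The groups came close, at 9.42 and 9.51, without overlap. Ndrg1 fell 1.53-fold (change -0.62, SE 0.12, limma adjusted p = 0.0107), a call that held under all 22 alternatives. Bnip3, which marks mitochondria for removal, read 9.05, 8.37, 8.15, 8.14 and 8.0 in DicerCN replicates 1 to 5, against 8.5, 8.82, 8.89, 8.47 and 9.0 in control replicates 1 to 5. DicerCN replicate 1 was the highest of all arrays, and the other DicerCN arrays lay below every control array. In its other probe set the groups overlapped more, with DicerCN replicate 1 at 8.22 below control replicates 3 and 5 (8.31 and 8.67), and the change was -0.24. Over all arrays Bnip3 did not pass (change -0.39, SE 0.18, adjusted p = 0.267), and without DicerCN replicate 1 it did (-0.57, adjusted p = 0.0193).

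Of the remaining hypoxia genes, Ankrd37, an ankyrin repeat protein, had a change of -0.08 (-0.29 to 0.14) and Adm, the vasodilator peptide adrenomedullin, of -0.09 (-0.34 to 0.15). Car9, a carbonic anhydrase of the cell surface and a common marker of hypoxic tissue, read 4.81 to 5.09 in DicerCN and 4.95 to 5.13 in control arrays, with a change of -0.11 (-0.27 to 0.05). None of the 3 passed.

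The test of unequal change within an enzyme step used the log2 ratio of a gene pair on each array. Of 11 pairs listed, 9 were measured, and 5 differed between DicerCN and control lenses (exact 2-sided permutation test over all ways to split the arrays 5 against 5, adjusted over the 9 pairs). All of these but Pfkp over Pfkl hold a gene that passed alone, so those ratios are not separate from the single-gene calls. No share over pairs of other genes was computed. P4ha2 over P4ha1 shifted most: the ratio was -2.48 ± 0.27 in DicerCN and -4.11 ± 0.35 in control lenses (SD, n = 5 each), a difference of 1.63 (exact permutation p = 0.00794, the smallest possible, adjusted p = 0.0179). Pgam2 over Pgam1 was -1.80 ± 0.48 in DicerCN and -0.33 ± 0.22 in control lenses, a difference of -1.47 with the same p-values. The ratio itself depends on each probe set's response, so only its difference between groups can be read.

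Egln3 over Egln1 was higher in all DicerCN arrays than in any control array (difference 0.72), and so was Pfkp over Pfkl (0.70), both with an adjusted p of 0.0179 by the exact permutation test. Neither Pfkp nor Pfkl passed alone, but single genes were tested by limma with adjustment over all genes, and ratios by permutation with adjustment over the pairs only. The outcomes for the ratio and for the single genes therefore cannot be compared directly. Aldoc over Aldoa overlapped between the groups and was lower in DicerCN lenses (-0.53, exact permutation p = 0.0159, adjusted p = 0.0286), and leaving out any of 8 arrays ended that call (adjusted p = 0.0571). Hk2 over Hk1 (-0.13), Pfkm over Pfkl (0.16), Slc2a3 over Slc2a1 (0.38) and Ldhb over Ldha (0.90) did not pass, with adjusted p from 0.155 to 0.651. With the Hk1 probe set that carries the RefSeq transcript, Hk2 over Hk1 differed by -0.46 (exact permutation, adjusted p = 0.119). The sign of Pfkm over Pfkl turned without DicerCN replicate 4.

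**Figure D4:**
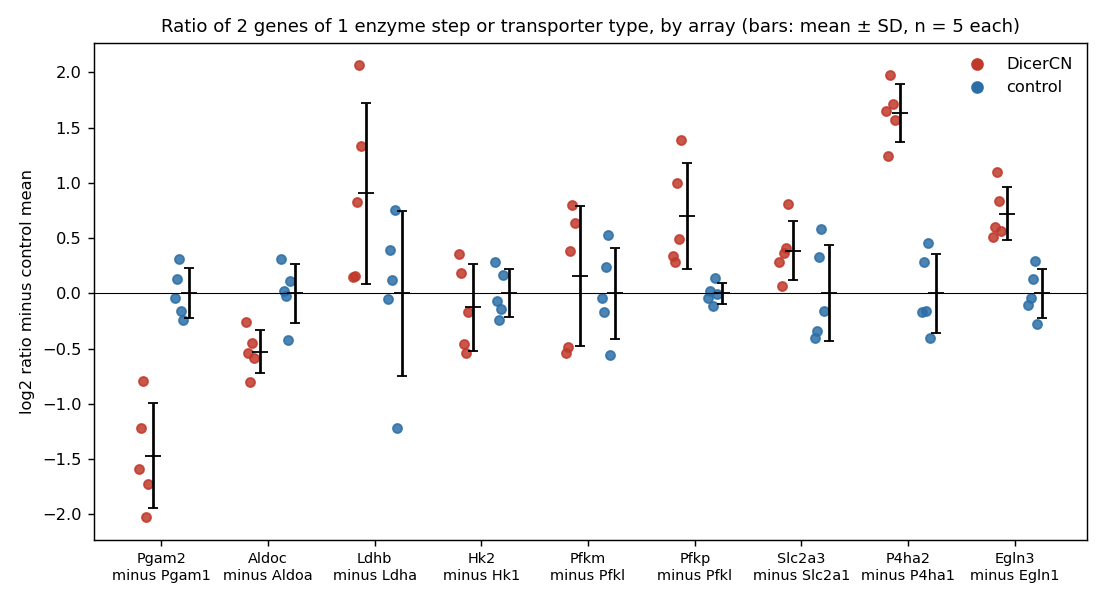
Log2 ratio of the signals of 2 genes of the same step, shown as its distance from the control mean (y axis), for 9 pairs, with 5 DicerCN arrays (red, left) and 5 control arrays (blue, right) and the mean ± SD. The groups lie apart for Pgam2 over Pgam1, Pfkp over Pfkl, P4ha2 over P4ha1 and Egln3 over Egln1.

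Glycolytic genes also varied among embryos of 1 genotype. Control replicate 5 had the highest signal of all 10 arrays in 10 of the 20 glycolytic genes, among them Pgk1, Ldha, Aldoa, Aldoc, Pfkl, Pdk1 and Slc16a3, and DicerCN replicate 4 had the lowest in 6. The median distance of the 20 genes from their control means was -0.11, -0.21, -0.27, -0.24 and -0.25 in DicerCN replicates 1 to 5, against -0.09, -0.06, 0.05, -0.10 and 0.22 in control replicates 1 to 5. DicerCN replicate 1 lay next to the lowest control arrays, so the groups were only just apart in this median. Over all genes it lay between -0.02 and 0.00 in DicerCN and between -0.03 and 0.03 in control arrays. Without control replicate 5 the count of genes called was 4 lower and 2 higher, as with all arrays.

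**Figure D5:**
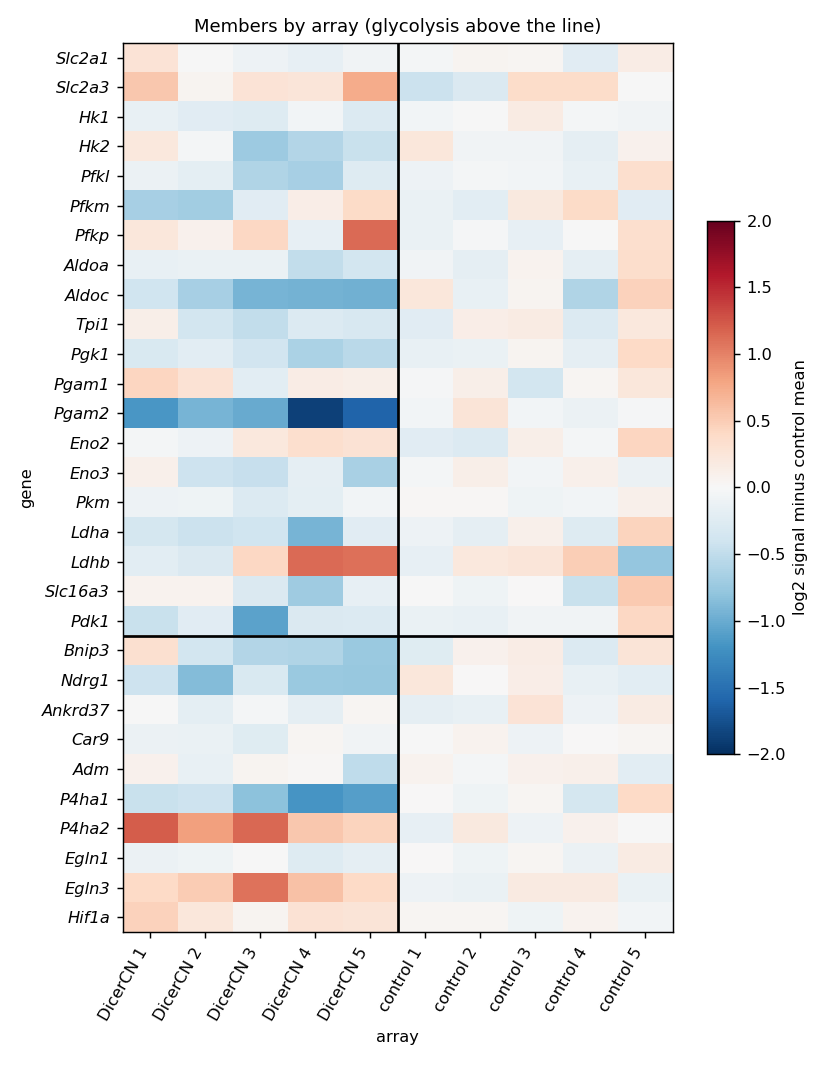
Log2 signal minus the control mean (colour, red higher and blue lower) for 30 genes (rows) in 10 arrays (columns, DicerCN left of the line, control right). Pgam2 and P4ha1 are blue in all 5 DicerCN arrays, P4ha2 and Egln3 red, and control replicate 5 is the reddest column among glycolytic genes, with a median of 0.22.

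Of 48 other genes of glucose use measured, which include other isoforms, the pyruvate dehydrogenase complex and its kinases, fructose bisphosphate regulators and the pentose phosphate pathway, 2 fell (4.17%, near the 3.97% of all genes that fell) and none rose, with a median change of 0.006. Slc2a8, an intracellular glucose transporter, fell by 0.33 (SE 0.09, limma adjusted p = 0.0371), and Taldo1, the transaldolase of the pentose phosphate pathway, fell by 0.36 (SE 0.10, adjusted p = 0.0448). Both calls were close to the threshold, and they were lost in 13 and 11 of 22 alternatives. The changes there were -0.37 to -0.29 for Slc2a8, apart from -0.18 with macrophage markers as a covariate, and -0.38 to -0.30 for Taldo1.

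Of 43 other genes of the hypoxia response, 4 rose and 3 fell (16.3%, against 6.54% of all genes), with a median change of -0.019. Hif1an, the asparagine hydroxylase that blunts HIF activity, was 9.52 ± 0.14 in DicerCN and 8.75 ± 0.11 in control lenses (SD, n = 5 each) and rose by 0.78 (SE 0.09, limma adjusted p = 0.000261). Bhlhe40, a repressor of transcription that HIF induces, rose by 0.84 (SE 0.15), Ddit4, an inhibitor of mTORC1, by 0.74 (SE 0.12) and Ak4, a mitochondrial adenylate kinase, by 0.67 (SE 0.11). Cited2, which competes with HIF1A for its coactivators, fell by 0.39, Mif, a cytokine, by 0.36 and Fam162a, a mitochondrial protein that HIF induces, by 0.45. Among the hypoxia genes that passed, known HIF targets stood on both sides, with Egln3, P4ha2, Bhlhe40, Ddit4 and Ak4 higher and P4ha1, Ndrg1, Mif and Fam162a lower. Genes that missed the threshold are not in this tally, nor are the glycolytic genes, of which Pgam2 and Aldoc passed, both lower. HIF activity was not tested. The Hif1an and Ak4 calls held under all 22 alternatives. The calls of Cited2 and Fam162a were lost under 8 and 9 of them with changes of -0.41 to -0.33 and -0.45 to -0.38, that of Mif under 3 with changes of -0.36 to -0.31, and those of Bhlhe40 and Ddit4 with macrophage markers as a covariate (adjusted p = 0.104 and 0.120), where their changes were 0.87 and 0.66.

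All 14 lens markers lay above the median signal of all genes, as did all 11 vessel endothelium markers. No lens marker passed the test. Of the 14 lens markers, 12 had changes below 0, with a median of -0.119, and the part of this in the glycolytic median was not tested. Their summed log2 signal was 16.34 to 16.60 in DicerCN and 16.53 to 16.63 in control arrays. Markers of other tissues were summed likewise. Periocular mesenchyme stood at 11.40 to 12.72 in DicerCN and 11.62 to 12.88 in control arrays, with Pdgfra alone lower (-0.58) and 0 of the other 10 past the test. Pdgfra was also the brightest of these markers (means of 10.49 in DicerCN and 11.07 in control lenses), so the sum leans on it. Vessel endothelium stood at 11.54 to 12.73 in DicerCN and 11.65 to 12.21 in control arrays, and red cells at 13.03 to 13.70 in DicerCN and 12.61 to 13.53 in control arrays. Pigment epithelium stood at 9.26 to 11.18 in DicerCN and 9.39 to 9.70 in control arrays, and surface epithelium at 9.27 to 9.58 in DicerCN and 9.04 to 9.41 in control arrays. No marker passed the test in any of these 4 lists. Changes lay above 0 in 11 of 11 vessel endothelium markers (median 0.175) and 7 of 7 red cell markers (0.22). They did so in 7 of 8 pigment epithelium markers (median 0.635) and 7 of 8 surface epithelium markers (0.127). Of the periocular mesenchyme markers, 10 of 11 had changes above 0 (median 0.336). Only muscle, retina and macrophage markers were used as covariates, and the part of any of these cells in the results above was not tested.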

How the data were processed

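The deposited table holds 35557 probe sets on 10 arrays. The authors' values are taken as log2 signals from their range (1.91 to 15.24). Array medians lay between 6.54 and 6.56, so arrays were scaled before deposit, and a change of total RNA cannot be seen. RNA (100 ng) was labelled by the Affymetrix whole-transcript assay, per the labels' protocols, and GCOS is named in the submitters' processing notes. How probes were summarised and normalized is not stated there. Array number limits the precision: the median SE of a change was 0.0986. Correlations between arrays ran from 0.977 to 0.990, no array pair was identical, and the titles number the samples as biological replicates.

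Symbols came from the platform annotation: 21789 probe sets had a single symbol, 1621 had more than 1 and 12147 had none. Gene IDs were matched to RefSeq (GRCm38.p6) for 21698 of the single-symbol probe sets. Groups were compared with limma 3.58.1 (R 4.3.3), lmFit and eBayes, 2-sided, over 19938 genes with Benjamini-Hochberg adjustment and a threshold of 0.05. The fit was tested on simulated data. Pair ratios were tested by exact permutation. Of 11 listed pairs, both with Eno1 had no value, so p was adjusted over 9. Intervals are 95%.

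Members and lists were chosen with earlier results of these data known. The rule for named genes takes all members, genes of the other lists that passed (at most 12 a list by smallest p), and of each marker list its gene of highest mean signal and up to 4 that passed; Dicer1 was added as the targeted gene. The 22 alternatives covered normalization, low signal, probe sets, annotation, array weights, variance trend, a replicate block, arrays left out and marker covariates. The restriction to RefSeq probe sets was chosen after seeing the data. Same-numbered samples were not treated as pairs.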

Additional observations from a re-analysis of the deposited data

Results flagged for a closer look

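In 6 of 78 groups of 5 arrays (39 genes), 1 array stood apart from the others by Dixon's criterion, in which the gap to the nearest array is divided by the group's range and set against 0.71. Chance flags about 1 group in 20. Among DicerCN arrays, replicate 3 was lowest in Pdk1 (7.30, next 7.93, ratio 0.738) and highest in Egln3 (7.26, next 6.76, ratio 0.73). Among control arrays, replicate 5 was highest in Pdk1 (8.79, next 8.30, ratio 0.881) and in Pfkl (10.30, next 9.93, ratio 0.771). Control replicate 2 was highest in Pgam2 (10.28, next 10, ratio 0.728), and control replicate 3 in the Hk1 probe set chosen by the highest mean (13.05, next 12.87, ratio 0.727).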

How the results depend on the processing

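Of the 6 called members, Pgam2 and Ndrg1 kept their call under all 22 alternatives, and of the 24 others, 19 were called under none. Counts below are higher and lower in DicerCN, and causes of change were not tested. With macrophage markers as a covariate, counts were 55 and 152 over all genes, 0 and 2 over members, 2 and 0 over other hypoxia genes, and 0 lower over other glucose genes. With retina markers, 511 genes and 2 members were lower, and 7 other hypoxia genes were higher and 0 lower. The lower count of other glucose genes was 1 after quantile normalization and 0 with muscle markers. Leaving out 1 array gave 303 to 503 higher and 481 to 840 lower genes, 2 to 3 higher and 3 to 6 lower members, 0 to 3 lower other glucose genes, 4 to 6 higher and 1 to 4 lower other hypoxia genes, and 4 to 5 pair ratios. Over all genes, counts fell furthest without control replicate 1 (303 and 481), then replicate 2 (325 higher) or 3 (504 lower), against 511 and 792 with all arrays. The 3 lower other hypoxia genes became 1 without control replicate 2, 3 or 5. The 2 lower other glucose genes became 0 without DicerCN replicate 1 or 3 or control replicate 1, 3, 4 or 5, and 1 without DicerCN replicate 2 or 4 or control replicate 2. Without control replicate 4 and DicerCN replicate 5, 1 other hypoxia gene was lower and 0 pair ratios passed (exact p of 0.0286 at best, adjusted p = 0.0514). With the replicate number as a block, 0 other glucose and 0 other hypoxia genes were lower, and 0 pair ratios passed, since the sign-flip test cannot go below 0.0625. Ldha passed with the block (adjusted p = 0.0247), as 5 members were lower. Deviations of same-numbered arrays correlated at -0.088 to 0.19, so the numbers were not taken as pairs. Signs turned for Slc2a1 (-0.087 to 0.022 with 1 array left out, 0.127 after quantile normalization, 0.005 and 0.022 without DicerCN replicate 3 or 4, 0.022 without control replicate 5, 0.035 and 0.033 with retina or macrophage markers), Adm (-0.146 to 0.007 with 1 array left out, 0.007 without DicerCN replicate 5, 0.032 without control replicate 4 too, 0.046 with retina markers), Hk1 (0.135, RefSeq probe set), Slc16a3 (0.142, macrophage markers) and Pfkm over Pfkl (-0.003 to 0.333 with 1 array left out, lowest without DicerCN replicate 4). None of these was called.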
